A study of Homo sapiens with 19 samples.

Results

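AKAP8 eCLIP in mesenchymal cells gave 30390 peaks, regions of RNA recovered more often with AKAP8 than from the input. They are all the entries of the authors' merged MES list, and make up 30390 of the 55027 peaks in the 2 lists of the series (24637 were called in epithelial cells). The study asked where AKAP8 binds RNA and which exons depend on it during the epithelial-mesenchymal transition (EMT). All groups came from HMLE/Twist-ER cells, an immortalized human mammary epithelial line that carries the EMT factor Twist joined to part of the estrogen receptor. Tamoxifen switches this Twist on. EPI cells were untreated, and MES cells received 20 nM tamoxifen. The MES peaks rest on 2 AKAP8 immunoprecipitations (IP) over 2 size-matched inputs, and poly(A) RNA was sequenced from 3 MES control, 2 MES AKAP8 knockdown (shAKAP8), 3 EPI control and 3 EPI knockdown libraries. Every group is thus a state of 1 engineered line in which the MES state is driven by Twist.

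AKAP8 is a zinc finger protein of the nucleus that anchors protein kinase A and is also known to bind RNA. In eCLIP, ultraviolet light links a protein to the RNA it touches, the protein is pulled down, and the reads are set against an input of the same gel size range. Introns are the parts of a transcript removed by splicing, and G runs in introns are well known as binding sites of hnRNP F/H proteins, which influence the choice of exons.

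The MES peaks were short and mostly well above input. Their width had a median of 56 nt and reached from 1 to 227 nt. The log2 of IP over input had a median of 3.36, with 1.76 and 4.72 at the 5th and 95th percentiles and a highest value of 6.71. The study's own limits for a high-confidence site, a log2 of at least 2 and a −log10 p of at least 3, were met by 26228 peaks (86.3%) and missed by 4162. The authors merged the 2 replicates before deposit, so no spread between replicates can be given for any peak and the read depth behind a peak is unknown. Peaks also overlapped one another on the same strand and joined into 19591 separate regions, of which 12334 held a single peak, so neighbouring peaks are not independent.

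AKAP8 peaks in MES cells were rich in guanine and held runs of G. The sequences below show examples, from genes with many or strong peaks, from AKAP8 itself and from HNRNPH1 as an exception, each as the middle 30 nt of the gene's peak with the largest log2, or the peak among the 10 with the largest −log10 p for PIEZO1, and as the same length 500 nt away outside any MES peak. They are written as RNA, read from the GRCh37 genome on the strand of the gene, with runs of 3 or more G in capitals.
RXRA peak in intron 1, chr9:137256134-137256163, + strand: aacgcccacugcguGGGcaccaGGGcacug
RXRA 500 nt downstream, chr9:137256634-137256663, + strand: ugcugacguuaGGGcugccuGGGacucagc
SKI peak in intron 1, chr1:2205539-2205568, + strand: ggcaccuccagguaaGGGGGauugaggaag
SKI 500 nt downstream, chr1:2206039-2206068, + strand: gccacgucccucuaacauguuucuggaagu
SEPTIN9 peak in intron 3, chr17:75433699-75433728, + strand: cucagaGGGGccugccgucaccaucgccag
SEPTIN9 500 nt upstream, chr17:75433199-75433228, + strand: gcaucagcaucccugccuugacacccccgu
PIEZO1 peak in intron 1, chr16:88828105-88828134, - strand: aguGGGGGaaGGGccacccaggccccgaug
PIEZO1 500 nt downstream, chr16:88827605-88827634, - strand: cugaugccugcaggacccuguGGGcuuugc
AKAP8 peak in intron 1, chr19:15490240-15490269, - strand: uGGGcuucguGGGGGcgucuuagacagugu
AKAP8 500 nt upstream, chr19:15490740-15490769, - strand: ccgcgguGGGaccacaacucccauuaggcc
HNRNPH1 peak in intron 5, chr5:179045848-179045877, - strand: auauaaauauucugcauaguauuaauaagc
HNRNPH1 500 nt upstream, chr5:179046348-179046377, - strand: gccgguggacuuccaGGGGaggaguacGGG
The log2 of IP over input was 6.66 for the RXRA peak, 6.03 for SKI, 5.55 for SEPTIN9, 4.90 for PIEZO1, 4.02 for AKAP8 and 6.15 for HNRNPH1. The RXRA pair shows that G runs also occurred outside peaks, where 69.6% of the windows held one. HNRNPH1, which encodes an hnRNP that itself binds G runs, was an exception. Its strongest peak was rich in A and U and had no G run in the stretch shown, while the window beside it did. Among pairs not shown, that of SLC12A7 also had fewer bases in G runs in the peak than in the window (3 and 12). That of C19orf25 had more (8 and 3).

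Over all MES peaks, guanine made up 43.7% of the bases, against 29.9% in 45898 windows of the same length 500 nt upstream or downstream in the same gene. Cytosine went the other way, at 22.6% in peaks and 29.3% in windows, so the excess was of guanine and not of GC alone (66.3% and 59.2%). GGG occurred in 96.0% of the 28143 peaks that had such a window and in 69.6% of the windows. For GGGG these shares were 75.3% and 32.9%, for GGAGG 46.4% and 15.9%, and for AGGGA 25.7% and 9.07%. GGG is contained in GGGG and AGGGA, so these counts overlap, and only the RNA strand was searched. At least 4 separate G runs were held by 43.2% of the peaks and 8.12% of the windows.

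Other short motifs did not share this pattern. UUUUU was found in 0.913% of the peaks and 5.37% of the windows, AAAAA in 0.664% and 3.70%, and CCC in 58.5% and 68.3%. GUGUG (13.0% and 11.5%) and UGCAUG, the motif of RBFOX splicing factors (1.54% and 1.64%), differed less, and their order depended on position, with UGCAUG at 1.30% and 1.06% in proximal introns and GUGUG at 7.93% and 10.6% in exons. Among all 5-base words, those with the highest ratio of use in peaks to windows were GGGGG at 4.03, GGGGA at 3.96 and GGGAG at 3.94.

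The guanine excess sat at the peak itself. Around the 5′ end of the strongest peak of each of the 19591 regions, guanine rose to 48.9% at 12 nt inside the peak, from 33.4% at the far ends of the 400-nt stretch examined, as the plot of base use around peaks shows. Cytosine was 18.6% at the same position and 27.9% far away. Guanine content was similar in weak and strong peaks, between 43.2% and 44.3% over 4 ranges of log2. It was 43.9% in peaks outside the 10 genes with most peaks, and 45.9% in proximal introns against 43.3% in distal introns.

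**Figure D1:**
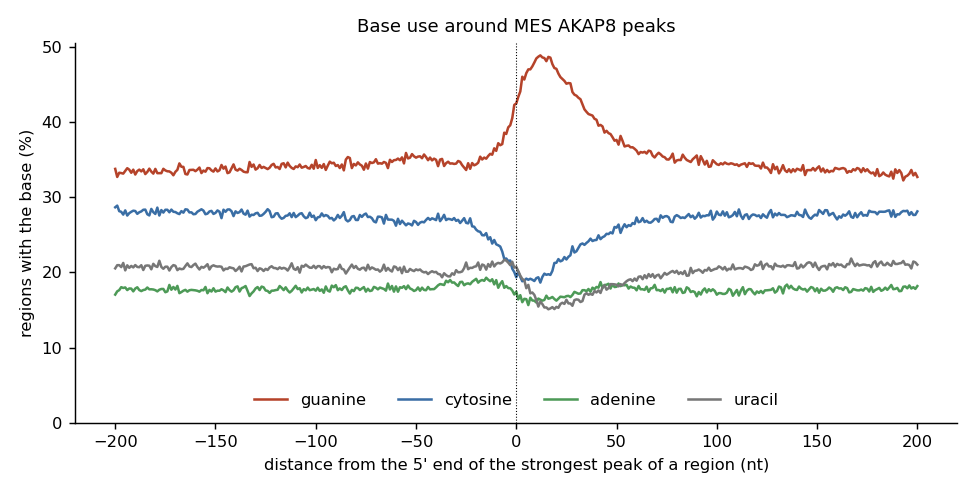
Base use around MES AKAP8 peaks. The x axis is the distance in nt from the 5′ end of the strongest peak of each of 19591 regions and the y axis the percentage of regions with each base, 1 line per base. Guanine reaches 48.9% at 12 nt while cytosine falls to 18.6% there.

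AKAP8 peaks in MES cells lay in introns, mainly far from exons. A peak was placed by its centre on its own strand. Distal introns, more than 500 nt from any annotated splice site, held 77.2% of the peaks (exact 95% binomial interval 76.7% to 77.7%). Proximal introns held 15.7% (15.3% to 16.1%). Only 0.543% were in coding exons, 1.76% in 5′UTRs, 1.60% in 3′UTRs and 0.852% in exons of noncoding transcripts, with 0.257% antisense to a gene and 2.10% outside the annotated basic transcripts of their strand. These intervals cover counting error only.

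Introns are also most of the length of genes, and the peaks were set against that length. Distal introns were 80.6% of the bases of the genes with a peak, somewhat more than their share of peaks, and proximal introns were 12.3%, somewhat less. Peak density was highest in 5′UTRs, at 527 peaks per Mb, with 243 in proximal introns, 183 in distal introns and 111 in 3′UTRs. Coding exons had 37.9 peaks per Mb, the lowest density of the 6 classes in the plot of positions.

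**Figure D2:**
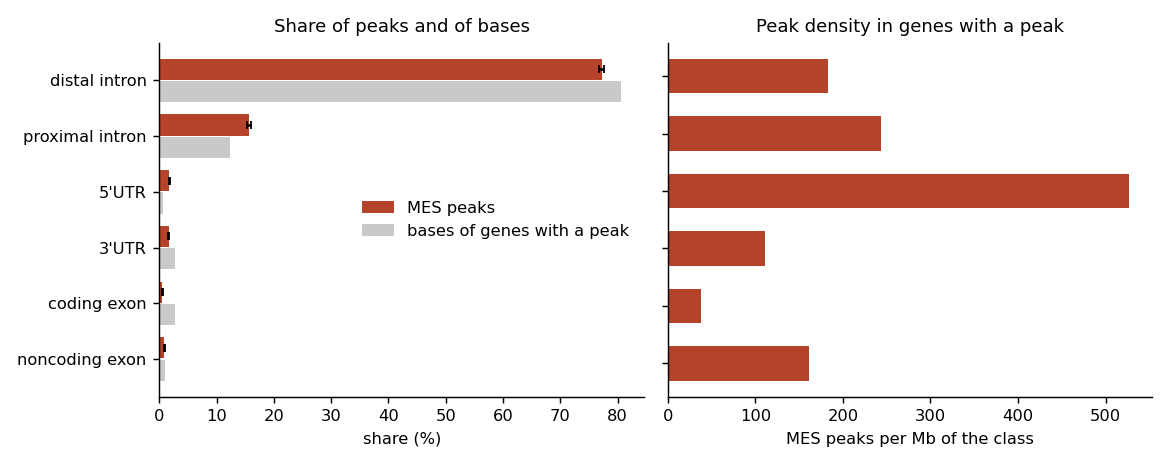
Positions of the 30390 MES AKAP8 peaks. Left, the share of peaks (red, error bars are exact 95% binomial intervals) and of the bases of genes with a peak (grey) in each class, in percent; right, MES peaks per Mb of each class in the same genes. Distal introns hold 77.2% of peaks and 80.6% of bases, and the 5′UTR has the highest density at 527 peaks per Mb.

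Within transcripts, the peaks gathered near the start. Of the 27051 peaks in an intron of a gene's representative transcript, 49.4% were in intron 1, which made up 29.6% of the intron bases of these genes. Intron 2 held 15.9% of the peaks and 16.2% of the bases, and later introns 34.7% and 54.2%. Peaks were found in 2819 of 24403 introns (11.6%), and an intron with a peak had a median length of 7228 nt, against 1260 nt for all introns of these genes. A longer intron has more room for a peak, so these lengths do not show a preference. Peak density by intron length was not computed. Of the proximal intron peaks, 70.7% were nearer to the 5′ splice site than to the 3′ splice site. The 5′ splice site is where an intron begins and where the U1 snRNP pairs with the RNA. Within 100 nt of a 5′ splice site lay 2.31% of intronic peaks, and 0.804% lay that close to a 3′ splice site. In steps of 50 nt downstream of a 5′ splice site, 225 peaks lay at 0 to 50 nt, 422 at 50 to 100 nt and 369 at 100 to 150 nt.

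The peaks were also concentrated towards the ends of the chromosomes. Within 5 Mb of an end lay 60.6% of the MES peaks, against 7.49% of the bases of all annotated transcripts and 20.3% of those of the genes with a peak. Of the genes with a peak 32.2% were there, and of all protein-coding genes 12.5%. Among single chromosomes, 19 held most peaks, 3572 or 104 per Mb of protein-coding gene, followed by 9 with 2847, 16 with 2482 and 17 with 2426. The fewest were on chromosome 18 with 142, X with 190 and 6 with 245, or 4.75, 3.55 and 3.37 per Mb. Guanine made up 43.9% of the peaks more than 5 Mb from an end, close to the 43.7% of all peaks.

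A small number of genes held most of the peaks. Of the 30390 peaks, 13 lay in no gene and the rest in 1996 genes, 1825 of them protein-coding. The median was 3 peaks per gene and 619 genes had 1, while 129 had at least 50 and 61 at least 100. The 10 genes with most peaks held 15.4% of the list and the first 100 held 52.4%.

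RXRA, the retinoid X receptor gene that partners many nuclear receptors, led with 758 peaks, 628 of them in its intron 1 (chr9:137208944-137332431). MAD1L1, a gene of the spindle checkpoint, had 729 (chr7:1855429-2272878), and SEPTIN9, encoding a GTP-binding cytoskeletal protein, 559 (chr17:75276651-75496678). SKI, an inhibitor of TGF-β signalling, had 435, of which 434 were in intron 1 (chr1:2158827-2241652). VAV2, which encodes an exchange factor for small GTPases, followed with 425 and PLEC, which encodes the cytolinker plectin, with 423. PIEZO1, a mechanically gated ion channel, had 338, ZC3H3, a zinc finger gene, 337 and GSE1 312. RXRA thus carried peaks at 6.14 per kb and MAD1L1, a gene more than 3 times as long, at 1.75.

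**Figure D3:**
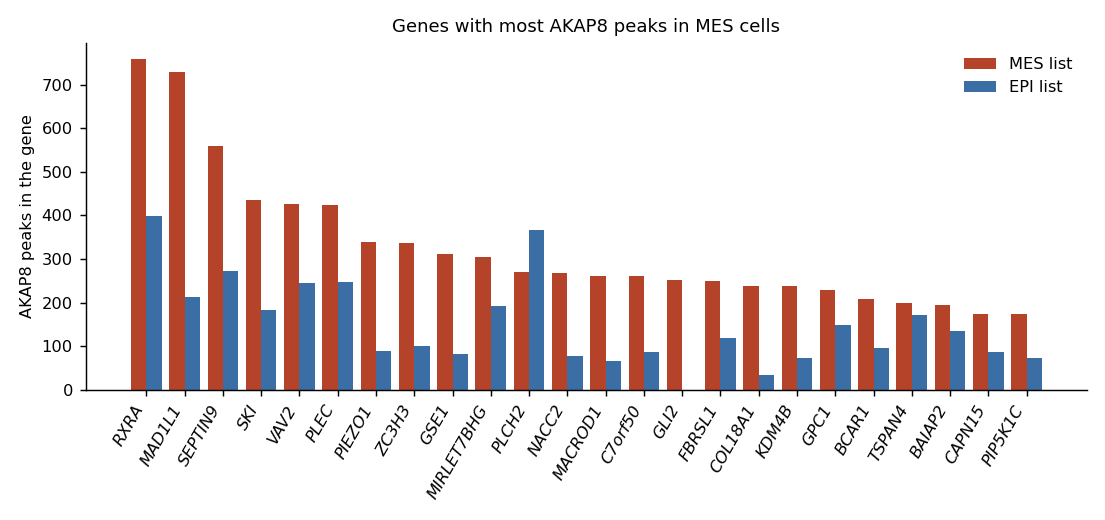
AKAP8 peaks per gene. Bars give the number of peaks in the MES list (red) and in the EPI list (blue) for the 25 genes with most MES peaks, 1 of them not shown. RXRA leads with 758 MES peaks, and GLI2 has 252 MES peaks and none in the EPI list.

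Per length, and among genes over 5 kb, the densest were TSPAN4, a tetraspanin gene, with 8.19 peaks per kb, the heparan sulfate proteoglycan gene GPC1 with 7.06, PLEC with 6.87, GLI4 with 6.63 and CAPN15, a calpain family gene, with 6.50. Peaks stood in clusters: 54.6% were in groups of at least 2 regions less than 100 nt apart, and there were 3571 such clusters. The largest was in intron 2 of the cadherin gene CDH4, with 15 regions over 1168 nt (chr20:59848483-59849650), followed by the laminin gene LAMA5 with 13 regions over 945 nt. NEAT1, the nuclear noncoding RNA that builds paraspeckles, had 13 regions packed into 196 nt of exon. PLEC followed with 12 regions, and PLEC, MIRLET7BHG, TNK2 and CAPN15 each had a cluster of 11.

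The strongest peaks were in part overlapping entries of the same region. By log2 the first 10 peaks were in PLEC, RXRA, GNA11 (a G protein subunit gene), SLC12A7 (a potassium-chloride cotransporter gene) and C19orf25, at 6.36 to 6.71. In each of these genes they lay in a single region, so their number does not show a concentration in few genes. By −log10 p, 185 peaks shared the highest value the pipeline gives, 400, so their order is not resolved by that measure. Of these, 83 were in PLEC (in 29 regions), 36 in NEAT1 (of its 38 peaks, in 35 regions) and 12 in AHNAK (4 regions). The let-7 host transcript MIRLET7BHG had 10 (7 regions) and HNRNPH1 had 3 (1 region). AKAP8's own transcript had 14 peaks, all in its intron 1. The deposited MES list held no entry in CD44 or CLSTN1, whose exons the study followed, nor in AKAP8L, a relative of AKAP8. Read coverage in these genes was not analysed here.

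Several gene groups of this cell system held peaks more often than genes at large. Of all annotated protein-coding genes 9.05% had a MES peak, and of the genes with a measured level 15.1%. Of 45 actin cytoskeleton and adhesion genes 26 had one, led by PLEC with 423, AHNAK with 100 and the formin gene INF2 with 86. Of 44 mesenchymal and matrix genes 18 had one, led by COL18A1 with 238, LAMA5 with 145 and FBLN1 with 74. Of 38 EMT signalling genes 13 had one, among them SKI with 435, NOTCH1 with 129 and TCF3 with 77. In the EPI list, 30 of the actin and adhesion genes, 11 of the matrix genes and 19 of the EMT signalling genes had a peak.

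Among genes that process RNA the shares varied by group. Of 24 hnRNP genes 8 had one, with 17 in HNRNPH1 and 16 in HNRNPF as the highest numbers. Of 38 core spliceosome genes 5 had one, of 22 SR protein and kinase genes 1 (SRSF4), and of 87 ribosomal protein genes 5. Among 21 EMT splicing regulators, PTBP1 with 32 peaks and AKAP8 were the bound ones, and ESRP1 and ESRP2 had none. Of 25 nuclear noncoding RNAs 8 had one, with 38 in NEAT1, 19 in PVT1 and 16 in MEG3. Of 32 epithelial junction genes 4 had a peak, of 24 condensation and chromatin genes 3, and of 18 A-kinase anchoring and protein kinase A genes 3, with 50 in PRKAR1B. These are counts without a test, and groups differ in gene length and GC content.

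GC content and length of a gene went with the presence of a peak. Among genes with a measured level, those with a MES peak had a median GC content of 51.9% and a median length of 49.2 kb, and the others 42.9% and 38.5 kb. When the genes were divided into 5 equal groups by GC content, the share with a peak went from 4.44% in the lowest to 35.2% in the highest. By length it went from 9.89% to 20.4%.

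Set against the EPI list, the MES peaks lay farther from exons. In EPI, 66.1% of peaks were in distal introns and 24.3% in proximal introns, against 77.2% and 15.7% in MES. The median distance of an intronic peak to the nearest splice site was 2541 nt in MES and 1358 nt in EPI. Guanine was 43.7% of MES and 46.8% of EPI peaks, and GGG was in 95.9% and 97.3%. Both lists were merged over replicates, so this difference has no test.

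About 1 in 2 MES peaks had an EPI counterpart: 49.4% overlapped an EPI peak by at least 1 base, and 61.6% of the EPI peaks overlapped a MES peak. By gene, 1580 of the 1996 (79.2%) also had an EPI peak, which is 57.8% of the 2734 genes with an EPI peak. MES peaks with an EPI counterpart were high-confidence more often than those without, at 93.2% and 79.6%. The 416 genes without any EPI peak held 6.08% of the MES peaks and had a median of 1 peak each. Those with most were GLI2, a transcription factor gene of hedgehog signalling, with 252, RASA3, a Ras GTPase-activating protein gene, with 146, GLIS1 with 123, KCNIP3 with 66, the collagen VI gene COL6A2 with 51, NTSR1 with 49, COL6A1 with 44, SH3RF3 with 43, the netrin receptor gene UNC5B with 37 and ZCCHC24 with 33.

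The state of the cells and the knockdown were checked in the RNA-seq libraries first. Gene levels here are junction reads summed over a gene's exon-skipping events and scaled between libraries, so they are not comparable between genes, and 1361 of the 1996 genes with a MES peak had a tested value. CDH1, the E-cadherin gene, had 1251, 1794 and 1554 scaled reads in the EPI controls and 41.2, 118 and 83.3 in the MES controls. All 5 epithelial markers with a value (CDH1, ESRP1, ESRP2, OCLN and JUP) were lower in MES, and the 7 mesenchymal markers with one were higher. ZEB1 among these passed the filter on low values through the MES libraries alone. The sum over the same 5 epithelial markers, compared between libraries only, was 7353, 8774 and 8148 scaled reads in the EPI controls, 547, 896 and 890 in the MES controls and 451 and 660 in the MES knockdown libraries, and none was at 0. In such bulk libraries, fewer cells of a kind and less RNA per cell cannot be told apart. AKAP8 had 382, 196 and 248 scaled reads in the MES controls and 108 and 122 after knockdown, so the groups did not overlap. It fell by 1.20 on the log2 scale (SE 0.28, limma, adjusted p = 0.0322), a call lost without the first or the third control or either knockdown library, with changes of −0.93 to −1.28. Its level did not pass the test between the MES and EPI controls (log2 fold change 0.00, SE 0.25, limma, adjusted p = 0.998).

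Genes with peaks in MES only were more often higher in MES than other genes. Of 9016 genes tested between MES and EPI controls, 5.39% were higher and 7.15% lower in MES, 12.5% in all. Of the 221 tested genes with MES peaks only, 47 were higher and 6 lower in MES, and their median log2 fold change was 0.28. Of the 827 with EPI peaks only, 15 were higher and 145 lower, with a median of −0.17. The 1140 genes with peaks in both had 54 higher and 83 lower, and the 6828 with neither had 370 and 411. Of the genes with MES peaks only, 7 passed the filter on low values through the MES libraries alone and so could differ in 1 direction only. Without them 41 of 214 were higher and 6 lower. Of the genes with EPI peaks only, 13 passed through the EPI libraries alone and 1 through MES alone, and of the 812 that passed in both states 15 were higher and 134 lower. These compare with 4.99% higher and 6.64% lower of the 8762 genes that passed in both states. A peak can be called only where the RNA is present, and the part of RNA level in these differences between the lists was not tested.

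Of the genes with at least 10 MES peaks and no EPI peak, 8 were tested. ADGRA2 and NR2F1-AS1 passed the filter on low values through the MES libraries alone, so that their direction was fixed, and the other 6 (COL6A1, KCNIP3, KCNMA1, RASA3, TP53I11 and UNC5B) passed it in both states and were higher in MES. COL6A1 had 3842, 4257 and 2755 scaled reads in the MES controls and 10.4, 17.7 and 10.3 in the EPI controls (log2 fold change 8.05, SE 0.28, limma, adjusted p = 2.95e-09). RASA3 had 274, 336 and 194 against 21.8, 47.2 and 32.1. KCNIP3 had 527, 397 and 292 against 74.9, 62.0 and 65.1, and UNC5B 111, 112 and 58.0 against 17.1, 20.7 and 10.3. The levels of COL6A1, KCNIP3 and UNC5B rested on 1 exon-skipping event each and that of RASA3 on 2. In each of these 4 genes, all called higher in MES, every MES control was above every EPI control. The share of all genes with such a separation was not counted.

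**Figure D4:**
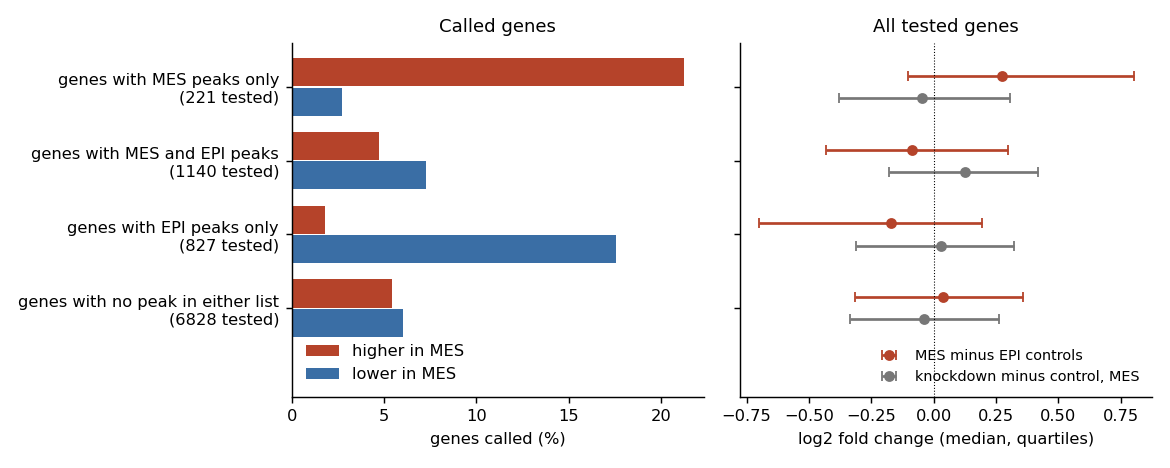
Expression of genes by the peaks they hold. Left, the percentage of tested genes called higher (red) or lower (blue) in MES than in EPI controls; right, median log2 fold change with quartiles for MES minus EPI controls (red) and for AKAP8 knockdown minus control in MES cells (grey). Of the 221 genes with MES peaks only, 47 are higher and 6 lower in MES.

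Among the matrix and EMT genes with a MES peak, several were higher in MES. Of the 13 matrix genes with a peak and a tested level 6 were higher and 2 lower, of all 35 tested matrix genes 20 and 6, and of all genes 12.5% were called. FBLN1, encoding the matrix protein fibulin-1, was higher by 3.03 on the log2 scale (SE 0.31), CDH11 by 7.34 (SE 0.62), COL1A1 by 7.02 (SE 0.26), FBLN5 by 8.56 (SE 0.51) and LTBP2 by 1.58 (SE 0.27). COL6A1 was the sixth. AGRN (log2 fold change −1.43, SE 0.31) and LTBP4 (−1.10, SE 0.26) were lower. Of the 11 EMT signalling genes with a peak and a tested level 2 were called, and of all 26 tested 5 were higher and 2 lower. FGFR1, a growth factor receptor gene, was higher by 4.55 (SE 0.25). ZEB1, a repressor of epithelial genes, had 74.5, 58.1 and 69.6 scaled reads in the MES and 0.948, 1.97 and 6.20 in the EPI controls, and as it passed the filter through MES alone its direction was fixed. Of the 25 actin and adhesion genes with a peak 2 were called, and of all 41 tested 4 were higher and 4 lower. The integrin gene ITGB4 (−2.60, SE 0.30) and MYO18A (−1.15, SE 0.15) were lower. Of the 5 nuclear noncoding RNAs with a peak and a level, MEG3 was higher by 1.72 (SE 0.45), and of all 16 tested 2 were higher and none lower. Of the 2 epithelial junction genes with both, the desmosome gene PKP3 was lower (−2.60, SE 0.24), and of all 17 tested 10 were lower and none higher.

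With all libraries, genes with a MES peak were called after loss of AKAP8 about as often as all genes. After knockdown 1.1% of the 9016 genes tested rose and 1.18% fell, 2.27% in all. Of the 1361 with a MES peak, 22 rose and 16 fell (2.79%). Of the 378 with at least 10 MES peaks, 10 rose and 6 fell (4.23%). The counts of 38 called genes with a MES peak and 205 of all genes rested on single libraries. They became 20 and 63 without the first knockdown library, 13 and 82 without the second, 21 and 129 without the first control, 19 and 104 without the second and 33 and 170 without the third. The largest falls were in PAQR5 (log2 fold change −2.29, SE 0.36), GRTP1 (−2.13, SE 0.44), the plakin gene PPL (−2.06, SE 0.42), the fatty acid desaturase gene FADS1 (−1.83, SE 0.26) and ACSF2 (−1.69, SE 0.29). Further falls were in the circadian factor CLOCK, the glycolysis regulator PFKFB4, AKAP8 itself and PLCH2, between −1.38 and −1.18. The largest increases were in the glycine transporter gene SLC6A9 (2.23, SE 0.31), GLIS2 (1.84, SE 0.33), the autophagy kinase gene ULK1 (1.64, SE 0.40), the amino acid transporter gene SLC7A5 (1.63, SE 0.27) and the kinase gene PAK4 (1.52, SE 0.39). After them came ANKRD52, the autophagy receptor gene SQSTM1, SEMA7A, the amino acid transporter gene SLC7A1 and MAP2K7, between 1.51 and 1.19. The levels of PPL, GLIS2, ULK1, SLC7A5, SQSTM1 and SEMA7A rested on 1 exon-skipping event each.

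The number of peaks in the 20 genes with the largest changes, 10 in each direction, ranged from 1 to 270. PLCH2, a phospholipase C gene with 270 MES peaks, had 262, 371 and 483 scaled reads in the MES controls and 146 and 173 after knockdown. GLIS2, a zinc finger gene with 92, had 105, 54.1 and 91.7 in the controls and 263 and 322 after knockdown. FADS1, with 1 peak, had 4489, 4484 and 4739 in the controls and 1271 and 1302 after knockdown. In each of the 3 genes the knockdown libraries lay outside the range of the controls, which is no added evidence as they were chosen among called genes. Of the 20 genes, FADS1, SLC6A9, SLC7A1 and ANKRD52 remained called whichever library was left out, and the other 16 lost the call in at least 1 alternative.

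Of the 10 genes with most peaks, 8 had a tested level and none of these was called after knockdown, where 2.27% of all genes were. Those with the lowest adjusted p were VAV2 (log2 fold change 0.74, SE 0.25, adjusted p = 0.107) and SEPTIN9 (0.74, SE 0.25, adjusted p = 0.111), by limma. VAV2 had 558, 683 and 662 scaled reads in the MES controls and 964 and 1149 after knockdown. PIEZO1 had 2350, 1967 and 1808 in the controls and 2065 and 5285 after knockdown, so its 2 knockdown libraries lay far apart and the groups overlapped.

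The median log2 change after knockdown was 0.09 in genes with a MES peak and −0.03 in those without. It was 0.34 in the 93 tested genes with at least 50 peaks, of which 2 rose and 1 fell. This shift moved with GC content: over the 5 groups of genes by GC content the median went from −0.26 in the lowest to 0.22 in the highest. Within the highest group it was 0.27 for genes with a peak and 0.19 for those without. Within the other 4, from the highest down, it was lower in genes with a peak, at 0.06 and 0.14, 0.00 and 0.03, −0.13 and −0.09, and −0.38 and −0.26. The part of GC content in the shift was not tested.

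Few exons were called after AKAP8 knockdown, and so a count of 0 among those close to MES peaks is near the share over all events. Exon inclusion is given as PSI, the percentage of transcripts that keep the exon, and an exon was called at an adjusted p under 0.05 and a change of at least 10 points. Of 43832 skipped-exon events tested in the 2 MES control and 2 knockdown libraries, 21 were called (0.0479%), and 5 to 17 when a library was left out or 8 by limma on logit PSI. Of the 1073 events with a MES peak within 1000 nt of the exon, 0 were called by the limma-moderated quasi-binomial test and 0 by limma on logit PSI. With no adjustment of p and the same limits otherwise, 25 of the 1073 passed (2.33%), against 0.942% of all events. Of the 37 exons that a peak overlapped none passed at either level.

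Of the 21 called exons, 7 were in a gene with a MES peak, out of 7873 such events (0.0889%). In DNM2, the dynamin 2 gene, the 12-nt exon at chr19:10919245-10919256 had PSI values of 56.9% and 56.2% in the controls and 29.4% and 33.7% after knockdown (limma-moderated test, adjusted p = 0.000242). It was the called exon nearest to a MES peak, which lay 3809 nt downstream. In FLNA, the filamin A gene, the 24-nt exon at chrX:153585619-153585642 went from 66.3% and 64.8% to 80.7% and 79.6%, the only gain of the 7.

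Inclusion fell in all of the 7 but FLNA. The exons of all but DNM2 had no peak within 5000 nt. RAI14 lost 25.2 points, the Arf GTPase-activating protein gene ARAP1 24.5, the spectrin gene SPTAN1 16.8 and APLP2, a relative of the amyloid precursor gene, 10.8. In all 7 exons the control and knockdown libraries did not overlap, which is no added evidence in called exons. Limma on logit PSI called none of the 7. The CD44 exon at chr11:35227659-35227790, in a gene without a peak, went from 36.7% and 42.3% to 6.49% and 1.69% (adjusted p = 0.0129 by the limma-moderated quasi-binomial test).

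The other event types gave few calls and none near a peak. Among mutually exclusive exons 1 of 9877 was called (0.0101%), among retained introns 5 of 1641 (0.305%), among alternative 3′ splice sites 2 of 2385 (0.0839%) and among alternative 5′ splice sites 1 of 1553 (0.0644%). Of the 9, only PFN2, the profilin 2 gene, held a MES peak, 3675 nt from its alternative 3′ splice site. Its PSI was 34.2% and 32.3% in the controls and 18.8% and 18.9% after knockdown.

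The exon with a peak within 1000 nt that came closest to the limit was in PLXNB2, a semaphorin receptor gene with 147 MES peaks. A peak with a log2 of 3.41 lay 30 nt downstream of it. Its PSI was 93.2% and 94.0% in the controls and 88.3% and 63.3% after knockdown, on 39 and 244 junction reads, with an adjusted p of 0.0648 by the limma-moderated test. The second was in RRBP1, a ribosome-binding protein gene, named here after its values were seen. It had 52.7% and 58.7% in the controls and 43.3% and 34.7% after knockdown (adjusted p = 0.0826 by that test). With the first knockdown library left out, exons of RRBP1, PTBP1 and HMGA1 were called, at −21.0, −19.2 and 24.8 points, with peaks at 659, 310 and 152 nt. With all libraries the changes were −16.7, −8.77 (adjusted p = 0.812 by the limma-moderated test) and 13.9 points (adjusted p = 0.221). The 2 knockdown libraries differed, at 91.9% and 71.0% for PTBP1 and 63.6% and 85.5% for HMGA1, the first of each within the range of the controls.

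Exons near MES peaks did change between the EPI and MES states. Of 49330 skipped-exon events tested in 3 EPI and 3 MES controls, 1.35% were called (667). Of these, 371 had more and 296 less inclusion in MES. Of the 1167 with a MES peak within 1000 nt, 30 were called (2.57%), 23 with more and 7 with less inclusion in MES. Without the first EPI control the 667 and 30 became 438 and 17, and without the second MES control 462 and 18. Within 300 nt 13 of 505 were called, and within 5000 nt 41 had more and 30 less inclusion. The directions were not tested. Of the events in genes with a MES peak 1.90% were called, and of those in other genes 1.24%. Some of the 30 share a gene, with several events in MEG3, PCBP4, EXOC7, BAIAP2 and PTBP1.

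The largest change of a single event was in EXOC7, a gene of the exocyst that tethers secretory vesicles. Its 93-nt exon at chr17:74087224-74087316 had PSI values of 22.0%, 8.76% and 9.84% in the EPI controls and 95.8%, 83.1% and 95.2% in the MES controls, on a mean of 47.7 junction reads. The same exon with other flanking splice sites, on a mean of 192 reads, had 4.26%, 2.59% and 1.41% against 22.7%, 20.5% and 9.54%, a smaller change of 14.8 points. A peak lay 44 nt upstream, with a log2 of 1.64 and a −log10 p of 2.40, below the high-confidence limits. The noncoding RNA MEG3 gained 55.7 points, with a peak 783 nt downstream that was also below these limits (log2 1.81, −log10 p 2.005). GSN, which encodes the actin-severing protein gelsolin, went from 14.5%, 16.7% and 31.3% to 63.7%, 71.9% and 66.5%, with a peak of log2 3.63 at 235 nt upstream.

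A peak covered part of the CAPN15 exon at chr16:586029-586142, with a log2 of 3.99. This exon had 2.63%, 7.32% and 12.8% in the EPI controls and 30.2%, 81.8% and 37.5% in the MES controls, on 11 to 39 reads, so its spread in MES was wide. INF2, a formin that builds actin filaments, lost inclusion, from 92.5%, 90.3% and 93.9% to 59.9%, 62.3% and 62.9%, and its peak at 141 nt was weak (log2 0.89). MTA1, a chromatin remodelling gene, gained 30.2 points with a peak of log2 3.73 at 165 nt. PLXNB2 gained 30.4, PCBP4, an RNA-binding protein gene, gained 39.8, and A1BG-AS1 lost 36.6. The peaks near PCBP4 (log2 1.46, −log10 p 1.89) and A1BG-AS1 (log2 1.75, −log10 p 1.54) were also below the high-confidence limits. In the 10 largest changes every EPI control lay on 1 side of every MES control. These events were chosen as called ones with a large change, so this separation is no added evidence.

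**Figure D5:**
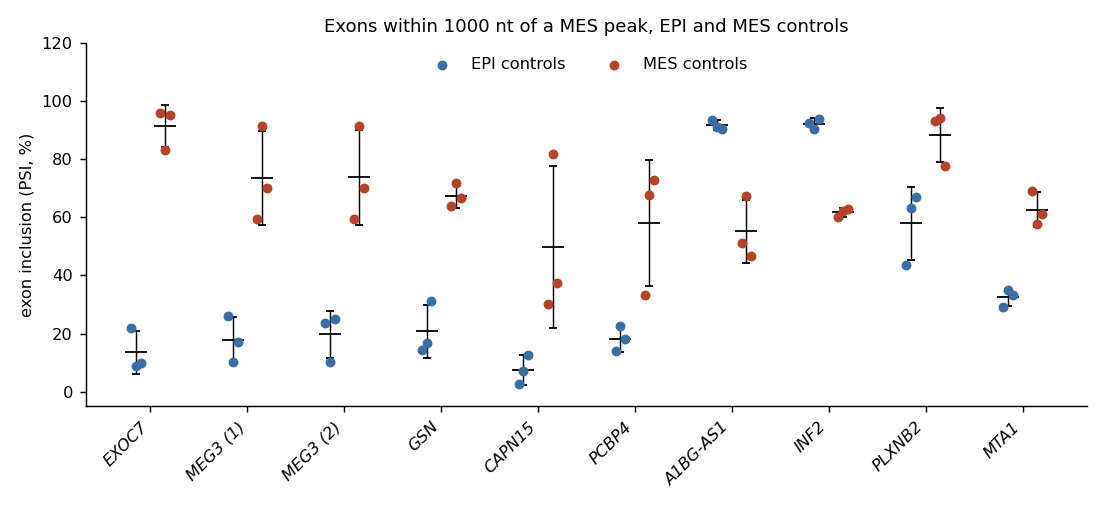
Inclusion of the 10 called exons with the largest change between EPI and MES controls that have a MES peak within 1000 nt. Points are the PSI of single libraries in percent (blue, 3 EPI controls; red, 3 MES controls), black marks are means with SD, and the 2 MEG3 entries are overlapping forms of an exon. The EXOC7 event shown changes most, while a better covered event of the same exon changes by 14.8 points, and INF2 and A1BG-AS1 are the losses.

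The change of these exons after AKAP8 knockdown in MES cells is given beside their change between the states. Both MES controls of the knockdown comparison are also among the 3 of the other, so the values are not independent. After knockdown EXOC7 changed by −7.91 points, CAPN15 by −13.4, PCBP4 by −24.0, A1BG-AS1 by −13.1, INF2 by −16.2, PLXNB2 by −17.8 and MTA1 by −1.28. None passed the test. Of the forms shown, the first of MEG3 and that of GSN had no tested value after knockdown.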

How the data were processed

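The authors made the peak lists with an eCLIP pipeline and a merging step on GRCh37, and deposited a log2 enrichment and a −log10 p per peak, merged over 2 replicates. They also deposited rMATS junction read counts (STAR 2.6.1a), the libraries of a group joined in 1 field. P-values were not taken from their tables, and 30 columns of per-library PSI were not used. A gene table from featureCounts 1.5.0 and DESeq2 holds only the authors' comparisons and was not used.

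Peaks were placed with Gencode 44 on GRCh37 (pysam 0.24.0). PSI was recomputed from reads and effective lengths. Events averaging at least 20 junction reads per library entered a quasi-binomial F test moderated by limma 3.58.1 (Benjamini-Hochberg within event type). Gene values used exon-skipping events present in all comparisons (33107) and median-of-ratios scaling. They were filtered at 10 scaled reads in 2 libraries and tested by limma on log2(value + 1) over 11 libraries in 4 groups, at an absolute log2 fold change over 1 and an adjusted p under 0.05. A read supporting several events counts more than once. The total counts per library were 32705396 to 40852217 junction reads. The study calls the libraries of a group biological replicates, all of 1 line. Tests were checked on simulated data.

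Members, gene lists and tests were chosen with earlier results of these data known. Named were the 10 strongest peaks by each measure, the 10 genes with most peaks, the 5 densest genes, the 5 largest clusters, called events in genes with a peak, the 10 largest gene changes each way after knockdown, the 10 largest exon changes between the states, and members of the lists. A few of these are not reported here. Alternatives changed 1 choice at a time.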

Additional observations from a re-analysis of the deposited data

How the results depend on the processing

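For UGCAUG and GUGUG, whether peaks or windows held the motif more often depended on the peaks used, as given above. Joining overlapping peaks left 19591 regions. Distal introns held 76.4% of regions, 78.6% of peaks with a log2 of at least 3 and 79.2% with introns placed before exons, and 83.3% and 66.0% with limits of 300 and 1000 nt. Proximal introns held 16.1% of regions, 14.5% at a log2 of at least 3, and 9.58% and 26.9% with those limits. Clusters held 40.7% of peaks with a gap of 50 nt and 82.3% with 500 nt. A G run was in 95.4% of peaks at a log2 of at least 3, 96.5% of regions and 99.9% of peaks extended by 50 nt. An EPI overlap was found for 47.6% with 1 in 2 bases of the shorter peak shared, 60.3% within 100 nt, 42.8% of regions and 46.7% of high-confidence peaks. Chromosome ends held 11.4% within 1 Mb, 70.8% within 10 Mb, 55.6% of regions, 63.6% of high-confidence peaks and 57.3% without the 10 genes with most peaks. Intron 1 held 48.0%, 50.04% and 50.9% in these last 3 sets.

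Exons called after knockdown were 8 with limma on logit PSI and 5 to 17 with a library left out (5 and 11 when this was the first or the second MES control). Near peaks they were 0 to 3, and 1 within 5000 nt. Between the states, leaving out a library gave 438 to 737 exons, with 438 without the first EPI control. Near peaks it gave 17 to 28, with 17 without the first EPI and 18 without the second MES control, and 13 and 71 were called within 300 and 5000 nt. Genes called after knockdown were 63 to 170 with a library left out, and 13 to 33 of those with a MES peak. The 2 counts were 129 and 21 for the first MES control, 104 and 19 for the second, 63 and 20 for the first knockdown library and 82 and 13 for the other. Genes called between the states were 936 to 1197, those with a MES peak 146 to 208, and those higher with MES peaks only 39 to 47. Of the 20 genes named after knockdown, 4 (ANKRD52, FADS1, SLC6A9 and SLC7A1) were called under every alternative run, and 51 of 160 values for these genes lost the call. Of the 7 exons after knockdown 25 of 56 values did, and of the 10 between the states 11 of 100. Regions, chromosome ends, intron 1, the high-confidence set, the filter within each state and leaving out libraries for exons were added after seeing the data. Where 1 knockdown library was left, it was assumed to vary like the other groups. No paired analysis was possible because the columns of the tables carry no replicate numbers. The number of libraries limits what the tests can show, and the cause of these changes was not tested.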
